A study of Mus musculus with 21 samples.

Results

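LSK cells are BM cells that lack lineage markers and carry Sca1 and cKit, the fraction that holds the stem cells and the earliest progenitors of the blood. The comparison described here sets the 2 LSK libraries titled as Ptpn11D61Y/+ controls against the 2 titled as MxCre controls, which makes 4 of the 21 libraries of the study. These libraries were picked by their titles, and the comparison was chosen with earlier results of these data known. The other 17 libraries are 3 LSK libraries of terminally ill MxCre;Ptpn11D61Y/+ mice (stage 3, S3) and 14 libraries of CD11b+ myeloid cells from BM or spleen of the same 3 genotypes. They serve here to estimate the spread and to show where the LSK controls differ from other cells.

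Both groups are controls, and neither should express the mutant protein. By the methods of the study, the Ptpn11D61Y allele lies behind a Neo-Stop cassette that keeps it silent until Cre removes it. Ptpn11D61Y/+ mice have no Cre, so 1 normal allele of Ptpn11 is left to work. MxCre mice have normal Ptpn11 and carry Cre under the Mx1 promoter, which interferon switches on in blood cells and also in other tissues. S3 mice carry both, so Cre releases the mutant allele. All mice received poly I:C, an inducer of interferon, in 3 doses, although the labels give no treatment. Genotype is thus tied to both the Ptpn11 allele and the Cre transgene, and the contributions of these 2 features cannot be told apart. Age, sex, strain and the time since poly I:C are not given for the control mice. For the RNA the methods name S3 and MxCre mice only, with 3 mice per genotype and CD11b+ cells only, which differs from the labels, and the labels were followed here. The labels number the 2 libraries of a group without saying that they come from separate mice, so p values measure the spread between these libraries, which may be technical.

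Ptpn11 encodes SHP2, a tyrosine phosphatase with 2 SH2 domains that bind phosphorylated receptors and adaptors. SHP2 passes signals from cytokine receptors such as cKit to RAS and the kinase ERK, and stem cells need it for their maintenance. The D61Y change opens the enzyme and leaves it active, and mutations of this kind are a frequent cause of juvenile myelomonocytic leukemia. A gene that is silenced on 1 chromosome often yields less mRNA, and the comparison shows how the rest of the LSK transcriptome reads beside that.

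The libraries were deep. Total counts were 82765577 and 71175951 in the MxCre libraries 1 and 2 and 104509425 and 83304059 in the Ptpn11D61Y/+ libraries 1 and 2. Between 22912 and 24220 genes had at least 1 count, and mitochondrially encoded genes held 0.727% and 0.597% of the counts in MxCre and 0.764% and 0.823% in Ptpn11D61Y/+ libraries. Levels are given as log2 CPM, which are counts scaled to a common library size by TMM, on a log2 scale with a prior count of 2, always in the order of library 1 and library 2. Kit, the receptor cKit that defines the sort, was at 9.29 and 9.26 in MxCre and at 9.46 and 9.58 in Ptpn11D61Y/+ libraries. Ly6a, which encodes Sca1, was at 6.20 and 5.92 in MxCre and at 6.46 and 6.60 in Ptpn11D61Y/+ libraries. Both defining markers were thus present in all 4 libraries, and neither passed the test between the groups (edgeR adjusted p = 0.239 for Kit and 0.434 for Ly6a). None of the markers of mature neutrophils, erythroid cells, B cells or other cells looked at below was at 0, so transcripts of cells outside the LSK definition were present in all libraries.

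The 4 control LSK libraries had between 12794 and 21885 counts of Y-linked genes and between 9 and 17 of Xist, so all were of 1 sex. Of the S3 LSK libraries, animal 540 had 15172 Y-linked counts, and animals 815 and 768 had none, with 39460 and 88850 counts of Xist. A library number does not mark an animal across cell types: Ptpn11D61Y/+ library 1 of LSK cells had 21885 Y-linked counts, whereas library 1 of spleen CD11b+ cells had 0 and 4753 of Xist.

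Ptpn11 itself (ENSMUSG00000043733) lies on the minus strand at chr5:121130533-121191397 of GRCm38. Its level was 7.32 and 7.37 log2 CPM in the MxCre libraries and 6.54 and 6.45 in the Ptpn11D61Y/+ libraries, with counts between 7233 and 13511. Both Ptpn11D61Y/+ libraries were below both MxCre libraries, and the difference was far larger than the spread within either group. The log2 fold change was -0.85 with a standard error of 0.079 (edgeR adjusted p = 0.0129), so the Ptpn11D61Y/+ libraries held 55.4% of the MxCre level, with a 95% interval from 48.8% to 63.0%. An exact two-sided permutation test of 2 against 2 libraries cannot reach 0.05 and gave the smallest p it allows, 1 in 3. The call ended when any 1 control library was left out (edgeR adjusted p of 0.0930 to 0.111) and in a fit of all 21 libraries (edgeR adjusted p = 1), while the log2 fold change stayed between -0.90 and -0.79. In S3, where the cassette is removed, the level was 7.78, 7.65 and 7.74, above both control groups, with a log2 fold change of 0.38 against MxCre (edgeR adjusted p = 0.00800) and of 1.23 against Ptpn11D61Y/+ (edgeR adjusted p = 0.000714). A read of the mutant allele and one of the normal allele are counted together here, and Gm42930 overlaps Ptpn11 on the same strand.

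**Figure D1:**
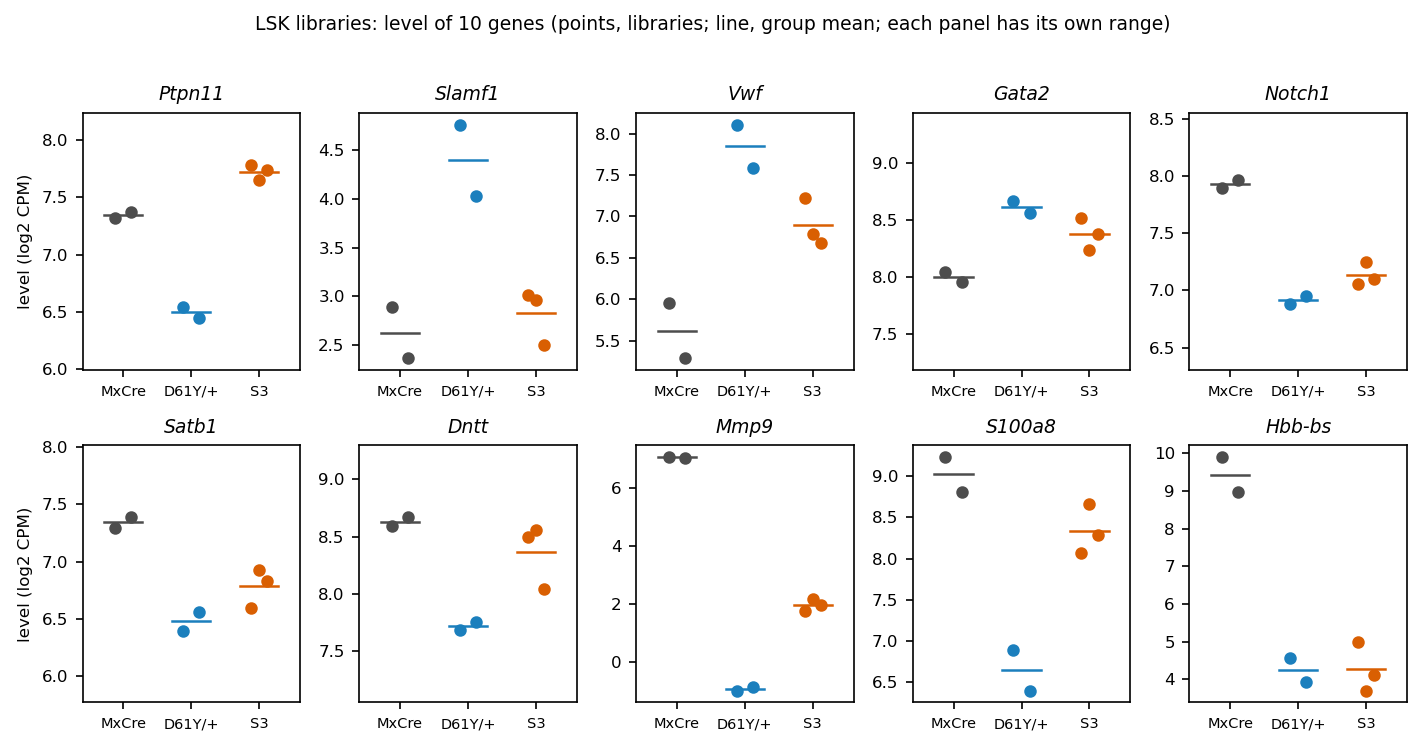
Level in log2 CPM (y axis, own range in each panel) of 10 genes in the 7 LSK libraries, grouped on the x axis by genotype, with each point 1 library and each line the mean of its group. Ptpn11 is lowest in the Ptpn11D61Y/+ libraries and highest in S3, while Slamf1, Vwf and Gata2 are higher and Notch1, Satb1, Dntt, Mmp9, S100a8 and Hbb-bs lower in both Ptpn11D61Y/+ libraries than in both MxCre libraries.

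Across the 18057 genes tested, 319 differed between the Ptpn11D61Y/+ and MxCre LSK libraries at an adjusted p under 0.05, or 1.77% (edgeR's quasi-likelihood test, Benjamini-Hochberg adjustment). Of these, 82 (0.454%) were higher and 237 (1.31%) lower in the Ptpn11D61Y/+ libraries, and 294 of them code for proteins. The median size of the change among the 319 genes was 1.37 on the log2 scale, and 186 changed by more than 1. Without adjustment 3513 genes (19.5%) had a p under 0.05, 1632 higher and 1881 lower, and the median over all genes was a log2 fold change of 0.0066. In each of the 319 genes the 2 groups did not overlap, as in 60.1% of all genes tested. For 24 of them, 20 lower and 4 higher, the group with less had at most 3 counts in each library, so that the size of the change is not known.

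The test takes its spread from all 7 LSK libraries, and the count rests on that choice. It was 2508 when the 4 control libraries were fitted alone and 1 to 4 when any 1 control library was left out, which leaves a single library in a group. Of the 54 named genes called beside Ptpn11, 1 or 2 kept their call without any 1 control library, Mmp9 each time, and 47 to 53 kept it without any 1 S3 library. None of the 54 changed direction.

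**Figure D2:**
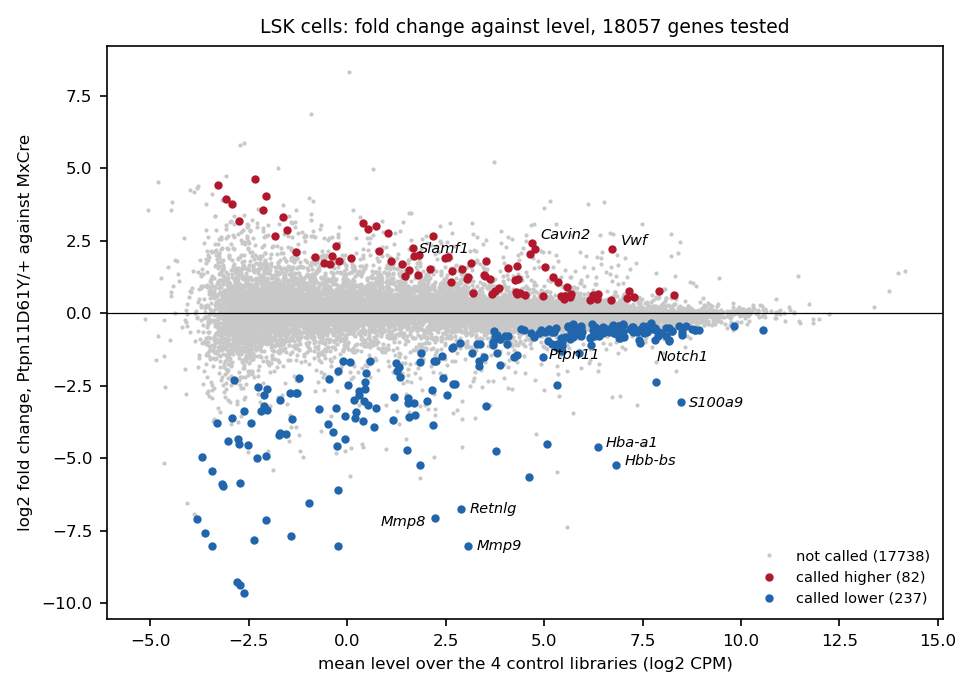
Log2 fold change of Ptpn11D61Y/+ against MxCre LSK libraries (y axis) by mean level in log2 CPM (x axis) for 18057 genes, each a point. The 82 genes called higher are red, the 237 called lower are blue and the other genes are grey, and the falls reach larger sizes than the rises at moderate and high levels.

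Genes of stem cells and of the megakaryocyte lineage, which gives rise to platelets, were followed in 2 lists, beside the 0.454% of all genes that were called higher and the 51.1% with a positive value. Of 19 stem cell identity genes, 18 had a positive log2 fold change and 3 rose past the threshold (Slamf1, Gata2 and Hoxb5), none fell past it, and the median was 0.64 beside 0.0066 for all genes. Of 16 genes of erythroid and megakaryocyte priming, 14 had a positive value and 2 rose past the threshold (Vwf and Itga2b), with a median of 0.48.

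Slamf1 encodes CD150, the surface protein by which stem cells are sorted within the LSK fraction. Its level was 2.89 and 2.36 log2 CPM in MxCre and 4.76 and 4.03 in Ptpn11D61Y/+ libraries, without overlap, a log2 fold change of 1.80 with a standard error of 0.31 (edgeR adjusted p = 0.0423). Gata2, a transcription factor that stem cells depend on, was at 8.05 and 7.96 against 8.67 and 8.56, a smaller change of 0.61 with a standard error of 0.11 (edgeR adjusted p = 0.0404). Hoxb5, whose expression marks stem cells with long-term activity, was at 0.76 and 0.36 against 2.47 and 1.99, with a log2 fold change of 1.69 and a standard error of 0.28 (edgeR adjusted p = 0.0360), and it overlaps Hoxb5os on the other strand. Each of the 3 genes was higher in both Ptpn11D61Y/+ libraries than in both MxCre libraries.

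Not every stem cell gene passed the test. Mllt3, a factor that maintains human and mouse stem cells, was at 5.33 and 5.09 in MxCre and 6.21 and 5.98 in Ptpn11D61Y/+ libraries, with a log2 fold change of 0.88 that missed the threshold (edgeR adjusted p = 0.0656). Cd34, which mouse stem cells lack and the progenitors that follow them carry, had a value of -0.37 (edgeR adjusted p = 0.101), and Cd48, a marker of cells past the stem cell stage, of -0.48 (edgeR adjusted p = 0.128). From the 82 genes called higher, 4 more outside the list were picked, so they describe only themselves. Tgfbr3, a TGF-beta co-receptor, had a log2 fold change of 0.89 (edgeR adjusted p = 0.0342), the efflux pump gene Abcb1a of 1.53 (edgeR adjusted p = 0.0351), the integrin gene Itga6 of 0.53 (edgeR adjusted p = 0.0300) and the tetraspanin gene Cd9 of 0.60 (edgeR adjusted p = 0.0263). Mllt3, Cd34, Cd48 and these 4 genes were named after their values were seen. Mllt3 and Cd34 are members of the stem cell list, Cd34 as its 1 negative member, and Cd48 and these 4 genes are not. Procr and Pdzk1ip1, looked up in the same way, had values that missed the threshold. They were 0.75 for Procr (edgeR adjusted p = 0.537) and 1.02 for Pdzk1ip1 (edgeR adjusted p = 0.139).

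Vwf encodes von Willebrand factor, which megakaryocytes and a platelet-biased share of the stem cells express. It was at 5.95 and 5.28 log2 CPM in MxCre and at 8.11 and 7.58 in Ptpn11D61Y/+ libraries, which is a clear separation. Its log2 fold change was 2.21 with a standard error of 0.32 (edgeR adjusted p = 0.0423). Itga2b, the integrin chain CD41 of megakaryocytes and early progenitors, was at 7.51 and 7.57 against 8.41 and 8.20, a log2 fold change of 0.77 with a standard error of 0.14 (edgeR adjusted p = 0.0450). Cavin2, which encodes a caveola protein abundant in platelets, was at 3.76 and 3.20 against 6.15 and 5.63 and had the largest rise among well-expressed genes, 2.41 with a standard error of 0.36 (edgeR adjusted p = 0.0423). Pf4, a platelet chemokine named after its values were seen, was at 3.58 and 3.37 against 5.56 and 4.97, with a log2 fold change of 1.82 that missed the threshold (edgeR adjusted p = 0.0848).

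The other large rises belonged to genes of varied function. Ehd3, an endocytic recycling factor, was at 3.75 and 3.52 log2 CPM in MxCre and at 6.0 and 5.27 in Ptpn11D61Y/+ libraries, a log2 fold change of 2.04 with a standard error of 0.27 (edgeR adjusted p = 0.0300). Further rises among the 15 largest belonged to the RNA-binding protein gene Rbpms2 (1.74), the cation channel gene Trpc6 (1.61), Enpp5 (1.60), the guidance receptor gene Robo3 (1.54), the GTPase regulator gene Arhgap29 (1.31), the leukotriene receptor gene Cysltr2 (1.28), the protocadherin gene Pcdh7 (1.23), Selenom (1.18), the transporter gene Abca4 (1.17) and the immunoglobulin segment Ighv1-78 (2.20). Ighv1-78 belongs to a large family of near-identical segments, so its counts are uncertain, as are those of Pcdh7, Cavin2 and Abca4, which overlap other genes. Among 14 tested HOXA and TALE genes, which act in stem cells, 6 had a positive and 8 a negative value, and the median was -0.01.

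Markers of mature neutrophils were among the genes with large falls. All 12 neutrophil markers had a negative log2 fold change, 7 fell past the threshold (Mmp9, Retnlg, Mmp8, S100a9, S100a8, Ly6g and Cxcr2), and the median was -5.02, while 48.9% of all genes were negative and 1.31% were called lower. The summed level of the 12 markers was 4630 and 3946 CPM in the MxCre libraries and 402 and 281 CPM in the Ptpn11D61Y/+ libraries, and it was 999, 2321 and 1469 CPM in S3. S100a9 was the most abundant of them, and none was at 0. In bulk libraries fewer cells of a type and less RNA per cell cannot be told apart.

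Mmp9 (ENSMUSG00000017737, chr2:164940780-164955850, plus strand) encodes a matrix metalloproteinase stored in neutrophil granules. It had 11247 and 9604 counts in MxCre and 52 and 44 in Ptpn11D61Y/+ libraries, or 7.06 and 7.02 against -0.98 and -0.85 log2 CPM. The log2 fold change was -8.02 with a standard error of 0.18 (edgeR adjusted p = 2.77e-06), the smallest adjusted p of all genes. Retnlg, a resistin-like protein of neutrophils, was at 6.18 and 6.33 against -0.61 and -0.31, a log2 fold change of -6.76 with a standard error of 0.39 (edgeR adjusted p = 0.00563). Mmp8, the neutrophil collagenase, was at 5.83 and 5.74 against -0.78 and -1.86, a log2 fold change of -7.06 with a standard error of 0.51 (edgeR adjusted p = 0.0129). In these 3 genes a high level in MxCre faced between 21 and 68 counts in a Ptpn11D61Y/+ library. Ly6g, the surface protein that identifies mouse neutrophils in flow cytometry, had 1125 and 847 counts against 8 and 1, so the size of its fall is uncertain (edgeR adjusted p = 0.0261).

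S100a9 and S100a8, the subunits of calprotectin, fell less and remained high. S100a9 was at 10.14 and 9.90 log2 CPM in MxCre and 7.13 and 6.73 in Ptpn11D61Y/+ libraries, a log2 fold change of -3.08 with a standard error of 0.33 (edgeR adjusted p = 0.0243). For S100a8 the change was -2.38 with a standard error of 0.28 (edgeR adjusted p = 0.0254). Cxcr2, the receptor that draws neutrophils to chemokines, was at 4.02 and 4.32 against 2.24 and 2.77, a change of -1.66 (edgeR adjusted p = 0.0351). Granule genes that neutrophil precursors make had large negative values that missed the threshold, namely Ltf with -7.39 (edgeR adjusted p = 0.0514), Ngp with -4.56 (edgeR adjusted p = 0.0572), Lcn2 with -5.48 (edgeR adjusted p = 0.0614) and Camp with -2.90 (edgeR adjusted p = 0.0643). Ltf was at 9.43 and 9.22 against 2.42 and 1.22, so the groups did not overlap, as in 60.1% of all genes tested. Its S3 libraries ranged from 5.52 to 7.32. These 4 genes were named after their values were seen. Fpr1 and Fpr2, receptors for bacterial peptides on neutrophils and monocytes that were also named after their values were seen, had log2 fold changes of -6.56 (edgeR adjusted p = 0.0129) and -6.10 (edgeR adjusted p = 0.0238), from 351 to 584 counts per MxCre library to between 1 and 15 per Ptpn11D61Y/+ library.

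Hemoglobin and heme genes were a further group with large falls. Of 12 tested erythroid markers, 9 had a negative log2 fold change and 6 fell past the threshold (Hba-a2, Hbb-bs, Alas2, Hba-a1, Hbb-bt and Slc4a1), with a median of -1.88, beside 48.9% of all genes negative and 1.31% called lower. Their summed level was 2406 and 1331 CPM in MxCre, 249 and 198 CPM in Ptpn11D61Y/+ libraries and 132 to 351 CPM in S3, and Hbb-bs was the most abundant. Hbb-bs, the adult beta globin, was at 9.90 and 8.97 log2 CPM against 4.56 and 3.92, a log2 fold change of -5.24 with a standard error of 0.67 (edgeR adjusted p = 0.0445). Alas2, the first enzyme of heme synthesis in erythroid cells, was at 6.59 and 5.66 against 1.71 and 1.15, a change of -4.75 with a standard error of 0.50 (edgeR adjusted p = 0.0244), and it overlaps Apex2. In both genes the MxCre libraries were far above the other 5 LSK libraries. The globin genes are near-identical pairs, so the split of counts between Hba-a1 and Hba-a2 and between Hbb-bs and Hbb-bt is uncertain.

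The MxCre libraries were thus the ones with the higher levels of both neutrophil and erythroid markers, and the part that such transcripts have in the other falls was not tested. Among the 15 largest falls of well-expressed genes, those outside both marker lists were Itgb2l (-3.22), an integrin chain of neutrophils, Wfdc21 (-1.81), I830127L07Rik (-1.78), the C-type lectin gene Clec10a (-1.52) and Plaur (-1.52), the urokinase receptor of myeloid cells.

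**Figure D3:**
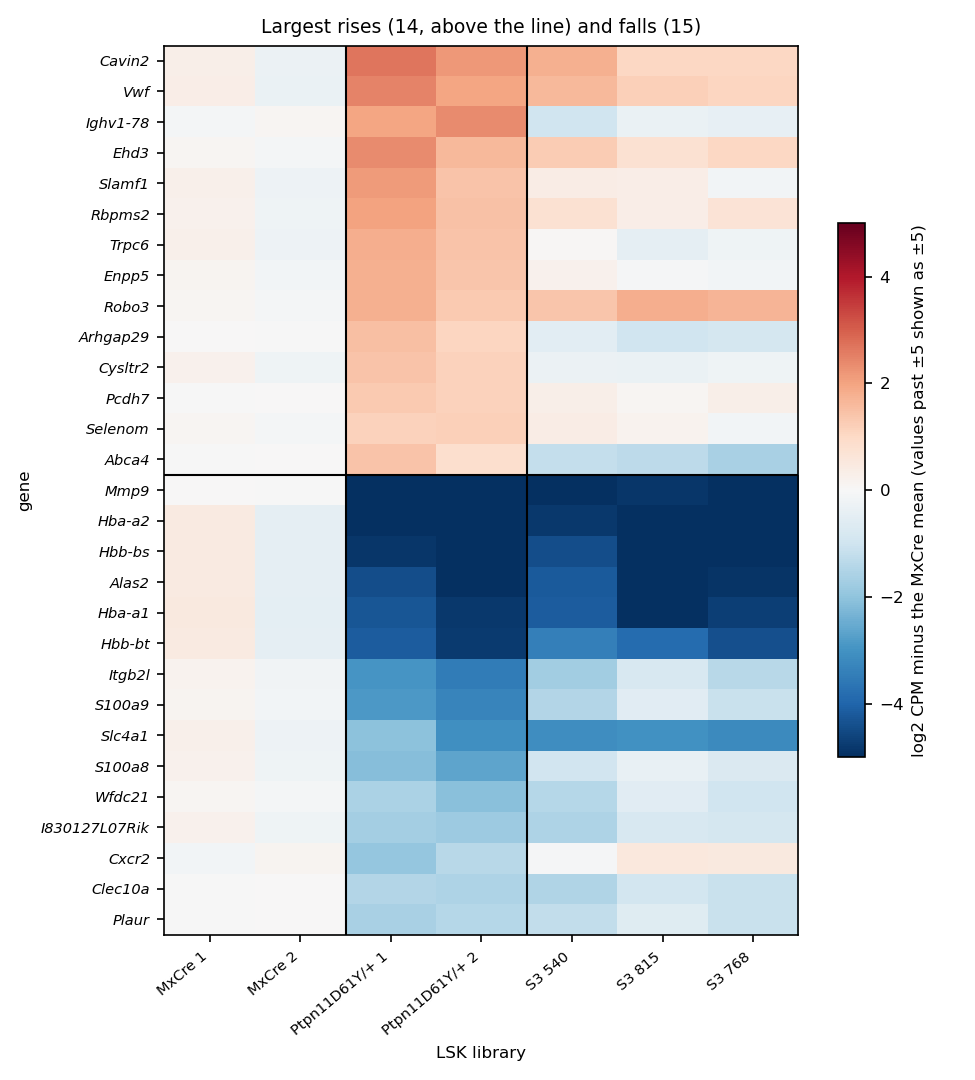
Level of 14 of the 15 genes with the largest rises and of the 15 with the largest falls (rows) in the 7 LSK libraries (columns), as log2 CPM minus the mean of the MxCre libraries, with colors limited to 5 in either direction. The Ptpn11D61Y/+ libraries are above the MxCre mean for all 14 rises and below it for all 15 falls, and the globin genes are as low in S3 as in the Ptpn11D61Y/+ libraries.

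The promoters of 3 genes are shown because these genes had large changes, Mmp8 and Retnlg as falls and Slamf1 as a rise, each as the 250 bases before the start in the RefSeq table for GRCm38.p6, on the plus strand and 5' to 3'. They were searched on both strands for GAGGAAGT, a site of the myeloid factor PU.1, and for AGATAA and TGATAA, sites of GATA factors, and matches are in capitals.
Mmp8, chr9:7558179-7558428: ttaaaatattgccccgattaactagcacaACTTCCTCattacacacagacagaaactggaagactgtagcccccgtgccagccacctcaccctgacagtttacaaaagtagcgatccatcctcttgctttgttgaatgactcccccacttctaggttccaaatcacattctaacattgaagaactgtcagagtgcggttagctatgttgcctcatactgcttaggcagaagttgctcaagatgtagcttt
Retnlg, chr16:48872358-48872607: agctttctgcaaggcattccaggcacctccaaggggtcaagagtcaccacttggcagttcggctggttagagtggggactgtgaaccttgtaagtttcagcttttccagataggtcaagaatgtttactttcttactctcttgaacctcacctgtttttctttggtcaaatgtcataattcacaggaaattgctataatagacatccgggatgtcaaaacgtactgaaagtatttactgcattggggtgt
Slamf1, chr1:171766882-171767131: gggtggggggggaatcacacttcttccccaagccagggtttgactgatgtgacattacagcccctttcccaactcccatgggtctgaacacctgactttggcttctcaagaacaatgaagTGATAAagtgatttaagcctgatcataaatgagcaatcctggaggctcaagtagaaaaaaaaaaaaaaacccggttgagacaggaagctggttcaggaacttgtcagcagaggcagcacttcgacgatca
The Mmp8 promoter holds GAGGAAGT on the opposite strand, 221 to 214 bases before the start, a motif found in 2.44% of 32851 promoters of this length. The Slamf1 promoter holds TGATAA 130 to 125 bases before the start, as do 7.94% of promoters, while AGATAA is in 9.99%. In the Retnlg window none of the 3 motifs was present.

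Some genes of the lymphoid branch fell in the Ptpn11D61Y/+ libraries. Of 12 lymphoid priming genes, 11 had a negative log2 fold change and 3 fell past the threshold (Notch1, Satb1 and Dntt), none rose past it, and the median was -0.68. Over all genes 48.9% were negative and 1.31% were called lower. Notch1, the receptor that commits progenitors to the T cell fate, was at 7.90 and 7.97 log2 CPM in MxCre and at 6.89 and 6.95 in Ptpn11D61Y/+ libraries. Its log2 fold change was -1.02 with a standard error of 0.089 (edgeR adjusted p = 0.0124), and Gm13568 overlaps it. Satb1, a chromatin organizer of early lymphoid progenitors, was at 7.30 and 7.39 against 6.40 and 6.56, a change of -0.87 with a standard error of 0.12 (edgeR adjusted p = 0.0243). Dntt, the terminal transferase of cells that rearrange antigen receptors, was at 8.59 and 8.67 against 7.68 and 7.75, a change of -0.91 with a standard error of 0.16 (edgeR adjusted p = 0.0423). In each of the 3 genes the libraries of a group lay closer to each other than to those of the other group. Flt3, the receptor of lymphoid-primed multipotent progenitors, was named after its values were seen. It was at 9.08 and 9.20 against 8.06 and 8.48, a change of -0.86 that missed the threshold (edgeR adjusted p = 0.0815).

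Myeloid priming genes did not move together. Of 15, 6 had a positive and 9 a negative value, none passed the test, and the median was -0.20. Before adjustment, 5 of the positive and 3 of the negative values had a p under 0.05. The corresponding shares of all genes were 9.04% and 10.4%, so several members moved, but in both directions. Mpo, the peroxidase of neutrophil and monocyte precursors, was at 10.73 and 10.52 in MxCre and 11.15 and 11.10 in Ptpn11D61Y/+ libraries (0.50, edgeR adjusted p = 0.156). Spi1, which encodes PU.1, had a value of -0.55 (edgeR adjusted p = 0.160), and Csf3r, the G-CSF receptor, of -0.52 (edgeR adjusted p = 0.0813).

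Of the genes that carry SHP2 signals, few passed the test beside Ptpn11 itself. Among 32 genes of the SHP2 and RAS pathway, 20 had a negative value, and 6 were lower and none higher at an unadjusted p under 0.05. The called ones were Ptpn11 and Cbl, both lower, and the median was -0.08. Over all genes 48.9% were negative, 10.4% were lower at an unadjusted p under 0.05 and 1.31% were called lower. Cbl, a ubiquitin ligase that ends receptor signaling and is itself mutated in juvenile myelomonocytic leukemia, was at 6.67 and 6.66 log2 CPM in MxCre and at 6.12 and 5.95 in Ptpn11D61Y/+ libraries, a log2 fold change of -0.63 with a standard error of 0.092 (edgeR adjusted p = 0.0263). Transcripts that follow ERK activity split into 9 with positive and 6 with negative values, and none of the 15 passed the test, with a median of 0.08. Dusp5, a nuclear ERK phosphatase, was at 6.67 and 6.46 against 4.37 and 4.78, a change of -1.99 that missed the threshold (edgeR adjusted p = 0.0617), while Ccnd1, the D-type cyclin, was at 5.28 and 5.29 against 5.74 and 5.81 (0.49, edgeR adjusted p = 0.0747). These 2 values thus lay in opposite directions. At an unadjusted p under 0.05, 3 of the 15 ERK output genes were lower and 1 higher, beside 10.4% and 9.04% of all genes.

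Immediate-early genes, which respond within minutes to growth factors and to handling of the cells, had negative values in 22 of 22 cases, with a median of -0.53 and 4 at an unadjusted p under 0.05, but none passed the test. Nr4a1, an orphan nuclear receptor, was at 9.29 and 9.01 against 7.84 and 8.12, a log2 fold change of -1.17 (edgeR adjusted p = 0.220). Among 19 tested NF-kB targets, 18 had a negative value, 14 of them at an unadjusted p under 0.05, and the median was -0.77, the lowest among the signaling lists. Over all genes 10.4% were lower at an unadjusted p under 0.05, and 1 call in 19 stands beside 1.31% called lower. The called one was Rel, an NF-kB subunit of blood cells, which was at 5.73 and 5.75 log2 CPM in MxCre and at 4.65 and 4.69 in Ptpn11D61Y/+ libraries, a log2 fold change of -1.08 with a standard error of 0.16 (edgeR adjusted p = 0.0261). The neutrophil and erythroid marker sums were lower in the same 2 libraries, and their part in these values was not tested.

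Of 22 cytokine receptor genes 18 had a negative value, with a median of -0.36, and 1 passed the test, Il1r1. At an unadjusted p under 0.05, 7 were lower and 1 higher. Over all genes 48.9% were negative, 10.4% were lower and 9.04% higher at an unadjusted p under 0.05, and 1.31% were called lower. Il1r1, the receptor by which stem cells sense interleukin-1, was at 6.19 and 6.49 against 5.47 and 5.64, a log2 fold change of -0.79 with a standard error of 0.14 (edgeR adjusted p = 0.0419). None of 17 JAK, STAT and SOCS genes passed the test, with 6 positive and 11 negative values and a median of -0.09. Stat5b, a transcription factor downstream of many cytokine receptors, was at 7.86 and 7.98 against 7.62 and 7.70 (-0.26, edgeR adjusted p = 0.124). Interferon-stimulated genes, of interest because all mice received poly I:C, also gave no call, with 9 positive and 25 negative values of 34, a median of -0.18 and none at an unadjusted p under 0.05.

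BCL-2 family genes, the subject of the wider study, did not pass the test between the 2 controls. Of 7 anti-apoptotic members 2 had a positive value, with a median of -0.28, and of 10 tested BH3-only and effector members 3 had one, with a median of -0.12. Over all genes 51.1% had a positive value. Bcl2 was at 6.35 and 6.43 log2 CPM in MxCre and at 6.63 and 6.42 in Ptpn11D61Y/+ libraries, so the groups overlapped (0.14, edgeR adjusted p = 0.517). Bcl2l11, the BH3-only protein BIM, was at 5.03 and 4.92 against 4.66 and 4.59, a value of -0.35 (edgeR adjusted p = 0.0996). Larger negative values that also missed the threshold were found for the BH3-only genes Bbc3, which encodes PUMA (-1.05, edgeR adjusted p = 0.146), and Pmaip1, which encodes NOXA (-1.05, edgeR adjusted p = 0.200), and for the low anti-apoptotic gene Bcl2a1b (-1.65, edgeR adjusted p = 0.149). In these 3 genes both Ptpn11D61Y/+ libraries were below both MxCre libraries, but the groups did not overlap in 60.1% of all genes tested either. Bcl2a1b is one of several near-identical copies and overlaps Gm29094, so its counts are uncertain. Among 17 p53 targets 8 had a positive and 9 a negative value and none was called. Cdkn1a, the cell cycle inhibitor p21, was at 5.71 and 5.67 against 4.81 and 4.45, a value of -1.05 (edgeR adjusted p = 0.0796).

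Cell cycle genes had small negative values. Of 43 S-phase genes 40 were below 0, with a median of -0.12 and no call, and of 52 G2/M genes 48 were below 0, with a median of -0.14, 18 at an unadjusted p under 0.05 and 1 call. Over all genes 10.4% were lower at an unadjusted p under 0.05 and 1.31% were called lower, so the single call is near the background. That call was Mki67, the proliferation marker Ki-67, which was at 9.06 and 8.99 log2 CPM in MxCre and at 8.53 and 8.40 in Ptpn11D61Y/+ libraries, a log2 fold change of -0.56 with a standard error of 0.096 (edgeR adjusted p = 0.0392). Its S3 libraries were at 9.23, 9.19 and 9.38, above both. Heat shock genes were negative in 11 of 11 cases with a median of -0.70 and no call. Hspa1a, the inducible HSP70, ranged from 2.27 to 7.54 over the 4 libraries, and its value of -2.86 had a standard error of 2.01. Mitochondrially encoded genes were positive in 10 of 10 tested cases, with a median of 0.32 and no call.

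**Figure D4:**
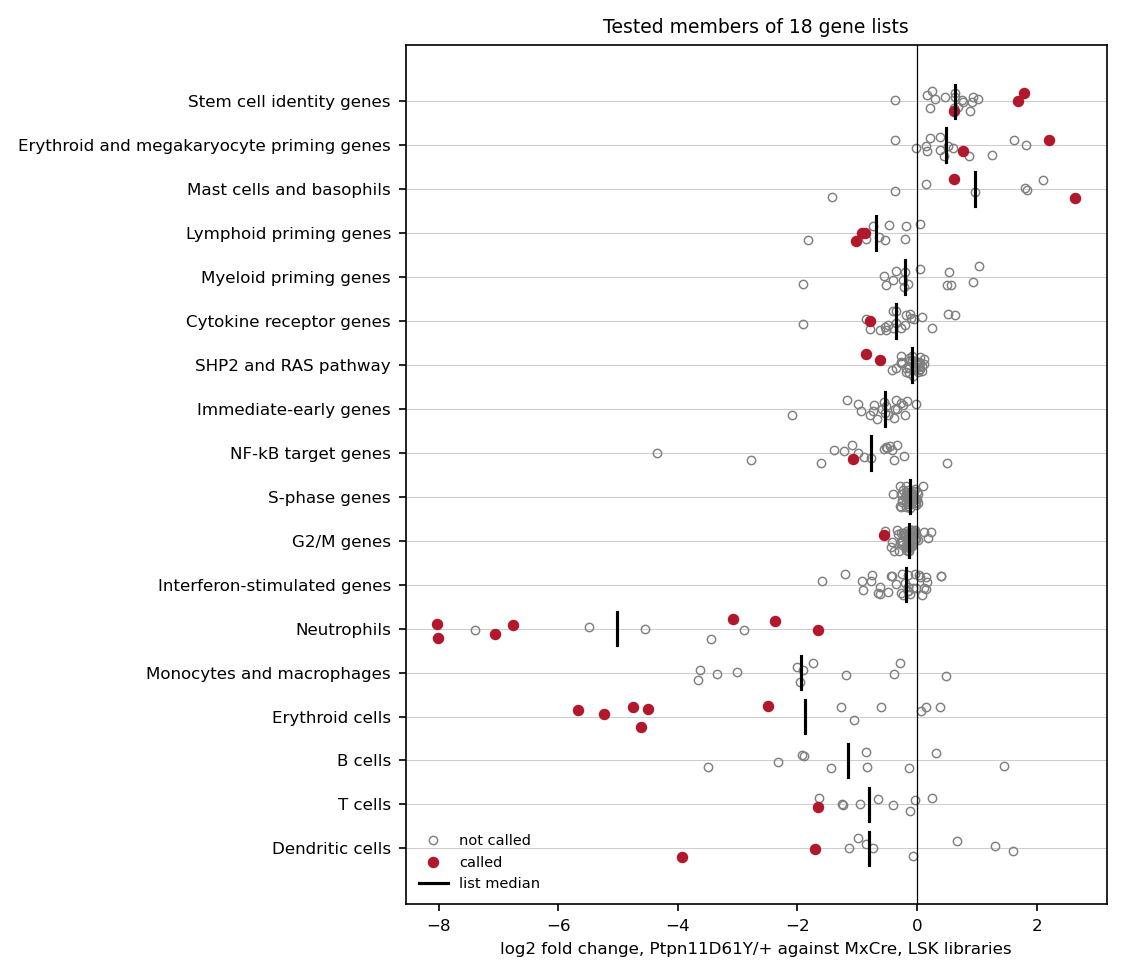
Log2 fold change of Ptpn11D61Y/+ against MxCre LSK libraries (x axis) for the tested members of 18 gene lists (rows), with each point a gene, red where it passed the test, and each bar the median of its list. Neutrophil markers lie lowest with a median of -5.02, stem cell identity genes lie mostly above 0, and the points of the SHP2 and RAS pathway gather around 0.

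Markers of further cells varied in both directions. Of 12 monocyte and macrophage markers 11 had a negative value, with a median of -1.93, 7 at an unadjusted p under 0.05 and no call. Their summed level was 1244 and 1137 CPM in MxCre, 347 and 309 CPM in Ptpn11D61Y/+ libraries and 524 to 1590 CPM in S3, with Lyz2 as the most abundant. Of 10 dendritic cell markers 7 were negative, 4 of them at an unadjusted p under 0.05, and 2 fell past the threshold. The other 3, with values up to 1.60, were positive at an unadjusted p under 0.05 without passing the test. Over all genes 48.9% were negative, 10.4% were lower and 9.04% higher at an unadjusted p under 0.05, and 1.31% were called lower. The list, which includes Flt3 as its most abundant gene, summed to 966 and 1087 CPM against 505 and 703 CPM. Cd209a, a lectin of dendritic cells, was at 2.58 and 2.65 log2 CPM against -1.03 and -1.52, a log2 fold change of -3.94 (edgeR adjusted p = 0.0261). Ccr7, the homing receptor of mature dendritic cells and T cells, was at 2.97 and 2.38 against 0.76 and 1.24, a change of -1.70 (edgeR adjusted p = 0.0351).

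B cell markers were divided. Of 10 markers, 8 were negative, with a median of -1.15, 5 at an unadjusted p under 0.05 and no call. Over all genes 48.9% were negative and 10.4% were lower at an unadjusted p under 0.05. The summed level nevertheless was higher in Ptpn11D61Y/+ libraries, at 34090 and 29770 CPM against 16210 and 7677 CPM in MxCre, since Ighm, the immunoglobulin mu chain, made up most of it. Ighm, named after its values were seen, was at 13.93 and 12.83 log2 CPM in MxCre and at 15.01 and 14.86 in Ptpn11D61Y/+ libraries (1.45, edgeR adjusted p = 0.326). It was the most abundant gene of MxCre library 1 with 1.60% of the counts and of Ptpn11D61Y/+ library 1 with 3.40%. Pax5, the factor that commits cells to the B lineage, had a value of -3.50 (edgeR adjusted p = 0.0747), opposite to the sign of Ighm. Jchain, the joining chain that plasma cells make and that was named after its values were seen, had one of 1.29 (edgeR adjusted p = 0.299).

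T cell markers were negative in 9 of 10 cases, with a median of -0.80, summed levels of 60.4 and 61.1 CPM in MxCre and 31.8 and 40.4 CPM in Ptpn11D61Y/+ libraries, Lck as the most abundant and Cd5 as the called one (-1.65, edgeR adjusted p = 0.0360). NK cell markers had 5 positive and 3 negative values and no call, and summed to 109 and 97.2 CPM against 131 and 126 CPM, with Nkg7 as the most abundant. Of 9 tested stroma markers 8 were negative, with summed levels of 291 and 325 CPM against 234 and 203 CPM and Pecam1 as the most abundant, and Col1a1, a fibroblast collagen, fell from 2.42 and 2.85 to 0.14 and -0.65 log2 CPM (-2.88, edgeR adjusted p = 0.0210). Mast cell and basophil markers went the other way, with 7 of 9 positive, a median of 0.97, summed levels of 388 and 365 CPM against 622 and 761 CPM, and Gata2 as both the most abundant and 1 of the 2 called genes. The other called gene was Fcer1a, the alpha chain of the IgE receptor, which rose from 1.07 and 0.73 to 2.98 and 3.95 log2 CPM (2.64, edgeR adjusted p = 0.0387). In S3 the mast cell and basophil sum was higher still, at 1262 to 1989 CPM. The counts of these lists stand beside 48.9% of all genes negative, 51.1% positive, 1.31% called lower and 0.454% called higher.

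The calls were also compared with transcript length, since many called genes are long. The median exon length was 4767 bases for genes called higher and 4582 for genes called lower, beside 3640 for all genes tested. Tested genes were split by exon length into 4 classes of about equal size. In the longest class, 6006 bases or more, 103 of 4492 genes were called lower and 30 higher, while in the 3 other classes, from short to long, 43, 57 and 34 were called lower and 8, 24 and 20 higher. The median log2 fold change was -0.04 in the longest class and 0.03 in the shortest. Among genes of at least 3 log2 CPM the longest class held 91 calls lower of 3423 genes and the shortest 12 of 1149. The 2 Ptpn11D61Y/+ libraries were not alike in this, as the median deviation of the longest class from the mean of the 4 libraries was -0.0017 in library 1 and -0.063 in library 2, beside 0.030 and 0.039 in MxCre. The part of transcript length in the calls was not tested.

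As examples of called falls in the longest class, 6 genes were picked after their values were seen, from no list of the study design, so they describe only themselves. Kmt2d, a histone methyltransferase of enhancers, was at 8.38 and 8.20 log2 CPM in MxCre and at 7.38 and 7.32 in Ptpn11D61Y/+ libraries, a log2 fold change of -0.94 with a standard error of 0.091 (edgeR adjusted p = 0.0129). Crebbp, a histone acetyltransferase, was at 6.86 and 6.85 against 6.14 and 6.17, a change of -0.70 with a standard error of 0.065 (edgeR adjusted p = 0.0129). Its relative Ep300 (-0.66, edgeR adjusted p = 0.0210), the remodeling subunit gene Arid1a (-0.58, edgeR adjusted p = 0.0243), Kmt2a (-0.79, edgeR adjusted p = 0.0309) and Kmt2c (-0.67, edgeR adjusted p = 0.0342) were called lower too. In all 6 the libraries of a group lay closer to each other than to those of the other group.

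Genes close to Ptpn11 on chromosome 5 were examined, since a targeted allele can carry linked sequence of the cells it was made in. Within 10 Mb of Ptpn11, 5 of 291 other tested genes were called, all lower, or 1.72% beside 1.77% of all genes. Within 2 Mb it was 2 of 82, or 2.44%. The 5 genes were Hectd4, 0.0288 Mb from Ptpn11, with a log2 fold change of -0.65 (edgeR adjusted p = 0.0384), the histone methyltransferase gene Setd1b at 1.95 Mb with -0.48 (edgeR adjusted p = 0.0263), the Mediator subunit gene Med13l at 2.37 Mb with -0.64 (edgeR adjusted p = 0.0261), the AMPK subunit gene Prkab1 at 5.11 Mb with -0.64 (edgeR adjusted p = 0.0445) and the kinase gene Cit at 5.12 Mb with -0.55 (edgeR adjusted p = 0.0478). Hectd4 was at 7.36 and 7.27 log2 CPM in MxCre and at 6.76 and 6.57 in Ptpn11D61Y/+ libraries. Each of the 5 overlaps a small or predicted gene, so their counts are uncertain.

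The S3 LSK libraries, which carry Cre together with the released mutant allele, are compared with the same control libraries, so the comparisons are not independent of each other. S3 differed from MxCre in 5652 genes (31.3%; 16.3% higher and 15% lower in S3) and from Ptpn11D61Y/+ in 6697 genes (37.1%; 19.5% higher and 17.6% lower in S3), far more than the 319 between the controls. Of the 82 genes higher in Ptpn11D61Y/+ than in MxCre, the S3 mean lay between the 2 control means for 45, below both for 28 and above both for 9. Of the 237 lower genes it lay between them for 168, below both for 40 and above both for 29. Against MxCre, 27 of the 82 were called higher and 9 lower in S3, and 152 of the 237 were called lower and 7 higher, counts that rest on the MxCre libraries that also chose these genes and from which nothing is read.

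The lists are given side by side for S3, beside the shares of all genes called higher (16.3% against MxCre, 19.5% against Ptpn11D61Y/+) and lower (15% and 17.6%). The median log2 fold change of the stem cell list was -0.70 for S3 against MxCre, with 9 of 19 genes called lower and 1 higher, and -1.61 for S3 against Ptpn11D61Y/+, with 16 called lower. For Slamf1 the S3 libraries, at 3.01, 2.97 and 2.49 log2 CPM, were near the MxCre libraries and below both Ptpn11D61Y/+ libraries. Lymphoid priming genes had a median of -0.17 for S3 against MxCre and of 0.49 for S3 against Ptpn11D61Y/+, with 6 of 12 called higher in the latter. Neutrophil markers were called higher in S3 than in Ptpn11D61Y/+ in 12 of 12 cases (median 2.52) and lower than in MxCre in 7 (median -1.95). Of 22 immediate-early genes 13 were called lower and none higher in S3 than in MxCre (median -2.02), and 9 were called lower and 2 higher than in Ptpn11D61Y/+ (median -1.49). The choice of control thus moved the size or the sign of these medians.

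CD11b+ cells of BM and spleen, which are mature myeloid cells, were compared in the same way, in a fit of all 21 libraries, which called 12 genes between the LSK controls, all lower. Some of these libraries stood apart from the others of their group. MxCre library 2 of BM CD11b+ cells had 2834 counts of Xist together with 1900 of Y-linked genes, and Hba-a1 took 6.29% of its counts. Both kinds of counts were also found in the BM (2780 of Xist, 958 Y-linked) and spleen (712 and 4225) CD11b+ libraries of S3 animal 540. Ptpn11D61Y/+ library 1 of spleen CD11b+ cells had no Y-linked counts, 4753 of Xist and 3.79% of its counts in mitochondrially encoded genes, beside 0.317% to 0.641% in the other 3 control libraries of the spleen. In BM CD11b+ cells 0 of 19555 genes differed between Ptpn11D61Y/+ and MxCre libraries (0%, edgeR adjusted p), although 4419 genes (22.6%) had an unadjusted p under 0.05. In spleen CD11b+ cells 1000 genes did (5.11%), 410 higher (2.1%) and 590 lower (3.02%). Each of these counts rested on 1 library, as 2852 genes were called in BM without MxCre library 2 and 0 in spleen without Ptpn11D61Y/+ library 1, where 2639 had an unadjusted p under 0.05. Ptpn11 had log2 fold changes of 0.64 in BM and of 0.89 in spleen CD11b+ cells (edgeR adjusted p = 0.351 in spleen), opposite in sign to LSK cells. Its levels in the fit of all libraries were 4.46 and 5.42 log2 CPM in BM MxCre, 5.53 and 5.78 in BM Ptpn11D61Y/+, 3.87 and 5.26 in spleen MxCre and 5.96 and 5.14 in spleen Ptpn11D61Y/+ libraries. In the spleen the 2 groups overlapped, and in both organs the MxCre libraries lay much farther apart than the LSK ones.

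Of the 319 genes called in LSK cells, 57 were also called in spleen CD11b+ cells, which is 17.9% of the LSK and 5.70% of the spleen calls. Among the 57 the direction was shared by 50, 48 lower and 2 higher, while over all 319 genes the sign was shared by 183 in spleen and by 127 in BM CD11b+ cells. None of these spleen calls was made without Ptpn11D61Y/+ library 1 of the spleen. The neutrophil genes S100a8 (-4.26, edgeR adjusted p = 0.0117), S100a9 (-4.14, edgeR adjusted p = 0.0145), Cxcr2 (-3.26, edgeR adjusted p = 0.0329) and Mmp9 (-3.24, edgeR adjusted p = 0.0145) were lower in the spleen as well, and their values in BM CD11b+ cells were between -0.71 and -0.12. Ehd3, higher in LSK cells, had values of 2.15 in BM and 2.47 in spleen CD11b+ cells.

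The difference between the LSK contrast and the BM CD11b+ contrast was tested directly and was called for 7 genes (0.0358%), all of them lower in the LSK contrast, and 2029 (10.4%) had an unadjusted p under 0.05 (edgeR). Mmp9 was 1 of them, with a difference of -7.91 on the log2 scale (edgeR adjusted p = 0.00365), since it was at 11.30 and 10.65 log2 CPM in BM MxCre and at 10.98 and 10.79 in BM Ptpn11D61Y/+ libraries. The count was 1133 without MxCre library 2 of BM CD11b+ cells, 0 to 2 without any other 1 of the 8 control libraries and 0 with limma-voom. For the difference from the spleen contrast 0 genes were called, with 2294 (11.7%) at an unadjusted p under 0.05, while DESeq2 called 633 and limma-voom 12. The Ptpn11 contrast in LSK cells was lower than in BM CD11b+ cells by a log2 difference of -1.50 (edgeR adjusted p = 0.481) and than in spleen CD11b+ cells by -1.75 (edgeR adjusted p = 0.421), so neither difference passed the test.

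**Figure D5:**
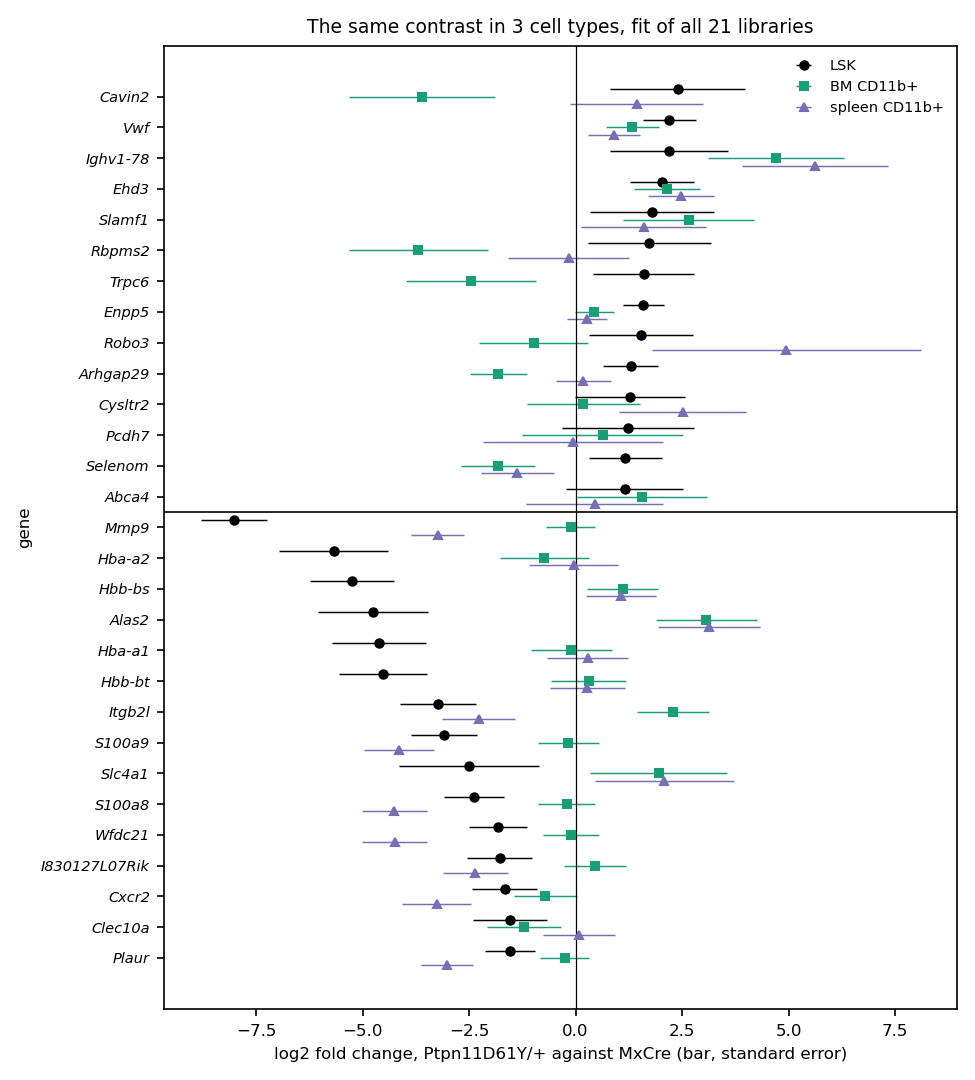
Log2 fold change of Ptpn11D61Y/+ against MxCre with its standard error (x axis, points and bars) for 14 of the 15 largest rises and the 15 largest falls in LSK cells (rows), in LSK, BM CD11b+ and spleen CD11b+ cells from a fit of all 21 libraries, leaving out points where all 4 control libraries had at most 3 counts. S100a8, S100a9 and Mmp9 lie far below 0 in LSK and spleen CD11b+ cells and near 0 in BM CD11b+ cells, Hbb-bs lies below 0 in LSK cells and above 0 in both CD11b+ fractions, and Ehd3 is above 0 in all 3.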

How the data were processed

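The authors sorted LSK cells, isolated CD11b+ cells on magnetic columns and prepared paired-end TruSeq mRNA libraries. The methods name the RNeasy Micro kit for the RNA of CD11b+ cells. Per the submitters' processing notes and the methods, reads were trimmed with Trim Galore 0.6.5 and mapped to GRCm38 with STAR 2.5.3a. The authors deposited raw counts per Ensembl gene in 1 table per library. The counting program, its annotation and its use of strand are not given in the sources used here, so counts of overlapping genes are uncertain.

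For the 7 LSK libraries, counts were filtered by filterByExpr of edgeR 4.0.16 (R 4.3.3) at a minimum count of 10 and total of 15 and scaled by TMM, and a robust quasi-likelihood model took 1 coefficient for each genotype, which leaves 4 residual degrees of freedom. The 18057 genes kept hold 99.98% of the counts. The threshold was 0.05 after Benjamini-Hochberg adjustment over all genes, and a standard error is the estimate divided by the root of its F statistic. CD11b+ contrasts and differences between cell types came from the same fit of all 21 libraries. Positions, transcript lengths and overlaps were read from GENCODE vM21.

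The genes named were Ptpn11, the 15 largest rises and 15 largest falls (called genes averaging 3 log2 CPM or more over the 4 libraries, groups not overlapping), called genes within 10 Mb of Ptpn11, called members of 30 lists (otherwise up to 4 members each), Kit, Ly6a and sex-linked genes. A few of these genes are not reported here. The comparison and the lists were chosen with earlier results of these data known. The alternatives were DESeq2 1.42.0, voom of limma 3.58.1, other scalings and filters, other sets of libraries, a replicate block and leaving out each library.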

Additional observations from a re-analysis of the deposited data

Results flagged for a closer look

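For 7 genes the difference between Ptpn11D61Y/+ and MxCre libraries was itself different in LSK cells and in BM CD11b+ cells, by the interaction term of edgeR's quasi-likelihood test over 21 libraries. The number of such genes was 0 with limma-voom, 1133 without MxCre library 2 of BM CD11b+ cells and 0 to 2 without any other 1 of the 8 control libraries. The differences of log2 fold changes were -7.91 for Mmp9 (adjusted p = 0.00365), -6.53 for Fpr2 (adjusted p = 0.0198), -7.56 for Ltf (adjusted p = 0.0361), -6.73 for Fpr1 (adjusted p = 0.0361), -7.69 for Ceacam10 (adjusted p = 0.0361), -7.46 for 1700047M11Rik (adjusted p = 0.0361) and -7.70 for Mmp8 (adjusted p = 0.0386). In each the fold change was the lower one in LSK cells. Mmp9, Mmp8, Ltf, Fpr1 and Fpr2 are genes of neutrophils. Ltf was not called in the LSK comparison itself (edgeR adjusted p = 0.0514). Ceacam10 had 165 and 103 counts in the MxCre LSK libraries and 1 and 1 in the Ptpn11D61Y/+ ones, and 1700047M11Rik, a long non-coding RNA, had 368 and 201 against 1 and 2, so the sizes of these values depend on the prior count.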

How the results depend on the processing

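The count of 319 genes between the LSK controls depended on the processing. It was 1480 with DESeq2 (672 higher, 808 lower; 300 of the 319 shared), 660 without a filter on low counts (301 higher, 359 lower), 2508 with only the 4 libraries compared (1121 higher, 1387 lower) and 12 in a fit of all 21 libraries (all lower). Leaving out 1 library gave 1 to 1295 genes, with 3 without MxCre library 1, 3 without MxCre library 2, 1 without Ptpn11D61Y/+ library 1, 4 without Ptpn11D61Y/+ library 2, 1295 without S3 animal 540, 438 without animal 815 and 633 without animal 768. When 1 control library is left out, the lone library of its group is assumed to vary like the others. Without both S3 libraries with Xist counts, an alternative chosen after seeing the data, it was 2555. With limma-voom, RLE factors, library size alone, at least 10 counts in every library and without X and Y genes it ran from 222 to 389. The medians of the gene lists moved in 44 of the alternative results run for them and stayed the same in 142. For the genes near Ptpn11, 2 alternative results moved and 1 stayed the same.

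Ptpn11 had a log2 fold change of -0.90 to -0.79 when 1 library was left out, past the threshold without an S3 library and not without a control library (edgeR adjusted p up to 0.111). In the fit of all 21 libraries it was -0.86 (edgeR adjusted p = 1). Of the 54 other named genes that were called, none changed direction, and Mmp9 kept its call under all 18 alternatives. DESeq2 kept 54 of the calls, the fit of all 21 libraries 3 and the loss of 1 control library 1 or 2. The uncalled Y-linked genes Ddx3y and Kdm5d had values around 0 that changed sign. Ddx3y was at -0.00332 with library size alone and between -0.093 without Ptpn11D61Y/+ library 1 and 0.141 without Ptpn11D61Y/+ library 2. Kdm5d ran from -0.0761 without Ptpn11D61Y/+ library 1 to 0.087 without Ptpn11D61Y/+ library 2 and was at 0.0146 with DESeq2, 0.0147 with RLE factors, 0.030 without a filter, 0.0013 with only the 4 libraries, 0.0058 without MxCre library 1, 0.0014 without S3 animal 768 and 0.000978 without both S3 libraries with Xist counts.

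The 7 genes that differed between the LSK and BM CD11b+ contrasts became 150 with DESeq2, 0 with limma-voom, 1 with the replicate block, 66 with only the 8 libraries compared and 0 to 1133 when 1 library was left out. For the LSK and spleen contrasts the 0 genes became 633 with DESeq2, 12 with limma-voom, 516 with only the 8 libraries and 0 to 165 when 1 library was left out, the latter without MxCre library 2 of spleen CD11b+ cells. Leaving out 1 control library of the CD11b+ contrasts, chosen after seeing the data, gave 0 to 2852 genes in BM (2852 without MxCre library 2) and 0 to 610 in spleen (610 without MxCre library 1, 570 without MxCre library 2, 0 without Ptpn11D61Y/+ library 1, 442 without Ptpn11D61Y/+ library 2). The cause of these shifts was not tested. The control groups share replicate numbers, and deviations of same-numbered LSK libraries from their group means correlated at -0.049. With 2 libraries in a group this is a single correlation over genes, which cannot show whether the numbers pair the samples. With the replicate block 34 genes were called, 10 higher and 24 lower, 18 of the 54 other named called genes kept their call and 36 lost it, and Ptpn11 kept its call (-0.85, edgeR adjusted p = 0.0428).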

Other observations

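Of the list members, 8 did not pass the filter on low counts in LSK cells: Hrk, Hoxa11, Hoxa13, Cxcl1, mt-Nd3, mt-Nd4l, mt-Atp8 and Lum. The highest count of any of them in an LSK library was 12, of mt-Nd4l, and Hoxa13 had 0 counts in all 7. A pair of called falls outside the lists, Cd33 and Spib, were picked after their values were seen. Cd33, a sialic acid binding receptor of myeloid progenitors, was at 5.13 and 4.93 log2 CPM in the MxCre and at 3.46 and 3.74 in the Ptpn11D61Y/+ LSK libraries, with S3 libraries at 3.89, 4.26 and 3.86, and its log2 fold change was -1.43 with a standard error of 0.18 (edgeR adjusted p = 0.0243). Spib, a transcription factor of plasmacytoid dendritic cells and B cells, was at 3.85 and 3.23 against 0.83 and 0.19, with S3 libraries at 1.02, 1.76 and 1.77, and its log2 fold change was -3.04 with a standard error of 0.37 (edgeR adjusted p = 0.0243). Both genes were lower in both Ptpn11D61Y/+ libraries than in both MxCre libraries, and in S3 they lay between the control groups.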
